A study of Mus musculus with 46 samples.

Results

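The comparison described here is that of 4 of the 46 samples of the series, all taken on day 5 of reprogramming of mouse embryonic fibroblasts (MEF). In 2 of them Nanog carried the N-terminal BRG1-interacting domain (BiD) of SS18 and was delivered together with Oct4 (labelled NanogN70+Oct4, here NanogBiD), and in the other 2 native Nanog was delivered with Oct4 (labelled Nanog+Oct4, here NanogWT). The 4 samples were identified by their labels, and the comparison was chosen with earlier results of these data known. All were bulk poly(A) RNA-seq libraries. The recipient cells were OG2 fibroblasts, which carry an Oct4-GFP reporter and were isolated from mid-gestation embryos. Both groups received Oct4 and a form of Nanog on retroviral vectors and were grown in the iCD3 induction medium, so they differed in the fused domain. Day 0 is the end of infection. The other libraries described were the same pair of combinations on days 0, 3 and 7, 2 libraries of starting MEF and 1 of mouse embryonic stem cells (mES). The variance of the tests was shared over all 31 libraries of the time course, including days not described here. A bulk library averages infected and uninfected cells, and fewer cells of a type cannot be told apart from less RNA per cell. No label says that the 2 libraries of a group came from separate cultures. Every p-value thus rests on the spread within groups, shared over the time course, and that spread may be technical.

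Nanog and Oct4 are homeodomain and POU-domain factors of the pluripotency network. SS18 is a subunit of BAF, the mammalian SWI/SNF remodelling complex that uses the ATPase BRG1 (Smarca4) to move nucleosomes, and its N-terminal domain is the part that contacts BRG1. During reprogramming of fibroblasts, mesenchymal and matrix genes are lowered and epithelial and pluripotency genes are raised over several days, and retroviral infection and foreign nucleic acid can induce interferon-stimulated genes in the same cells.

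The 4 libraries summed to between 389829 and 417220 FPKM (fragments per kilobase of transcript, scaled to the mapped total of the library) and held 13167 to 13503 genes at 1 FPKM or more. Their depth relative to their median, read from the steps between the lowest values, was 0.854 to 1.03. The fibroblast label fitted the markers: all 10 fibroblast markers examined were above 1 FPKM in the 4 libraries, with Vim between 2670 and 4336 FPKM. Of these, 4 (Col1a2, Dcn, Lum and Thy1) were lower with NanogBiD. The sum of all 10 was 3206 to 3561 FPKM with NanogBiD against 4664 to 5179 with NanogWT, and 9192 and 9112 in MEF. Vim made up most of the sum at day 5 and did not pass (adjusted p = 0.1). Transcripts of the delivered factors came first. Pou5f1, which encodes Oct4, stood at 5377 and 5428 FPKM with NanogBiD and 4963 and 5546 with NanogWT (log2 difference 0.04, SE 0.36, adjusted p = 0.97). Nanog stood at 1225 and 1122 FPKM against 1477 and 1652 (log2 difference -0.41, SE 0.20, adjusted p = 0.19). The delivered factors were thus present in all 4 libraries at levels that did not differ by the test, and Ss18, whose domain the fusion carries, was at 117 and 118 against 29.4 and 33.6 FPKM, which checks the labels.

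A gene was called when limma's moderated test across the 16842 genes tested gave a Benjamini-Hochberg adjusted p under 0.05 and the difference was at least 2-fold on log2(FPKM + 1). At day 5, 6.48% of genes were called, 3.2% higher and 3.28% lower with NanogBiD. The 539 higher and 552 lower genes stood in different relations to the starting and the target cell. Of the higher genes, 113 (21.0%) belonged to the genes that exceeded MEF by 4-fold or more in mES, a class that made up 6.57% of all genes tested, and 31 were at least 4-fold higher in MEF. Of the lower genes, 116 (21.0%) were at least 4-fold higher in MEF, against 6.32% of all genes tested, and 22 were at least 4-fold higher in mES. Most called genes belonged to neither class, 395 of the higher and 414 of the lower.

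The levels of the called genes were set beside those of the starting fibroblasts. For the lower genes, the median difference from MEF on log2(FPKM + 1) was 1.83 with NanogWT and 0.33 with NanogBiD. The higher genes mirrored this, with a median difference from MEF of 1.59 with NanogBiD and 0.18 with NanogWT. These medians cover genes that went both ways, and some lower genes, such as Col1a2, were far below MEF in all 4 libraries. The libraries of the groups compared at days 0, 3 and 7 were separate from those of day 5. At day 3, when 3.7% of genes were called (1.25% higher and 2.45% lower), 145 of the higher and 292 of the lower genes of day 5 were called in the same direction. These were 26.9% of the higher and 52.9% of the lower genes of day 5, and 69.0% and 70.7% of the higher and lower genes of day 3. At day 7, when 10.4% were called (5.79% higher and 4.65% lower), 296 (54.9%) of the higher and 456 (82.6%) of the lower genes of day 5 were called the same way, making up 30.4% and 58.2% of the day 7 calls. At day 0, when 0.76% were called (0.422% higher and 0.338% lower), 6 higher and 17 lower genes were shared.

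**Figure D1:**
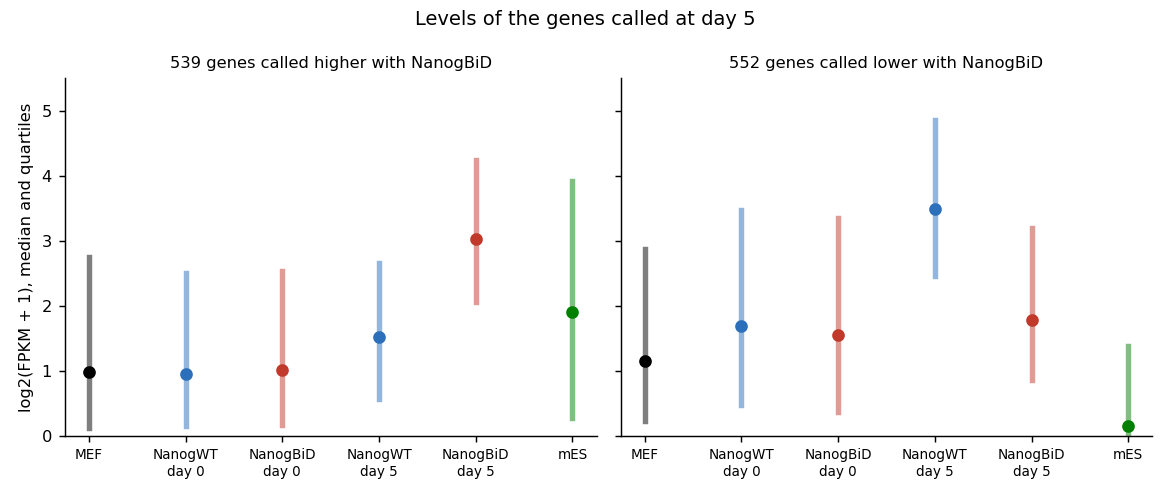
Median (point) and quartiles (bar) over genes of log2(FPKM + 1) in MEF (2 libraries), the 2 combinations at days 0 and 5 (2 libraries each) and mES (1 library), for the genes called at day 5. The lower genes have a median of 3.49 in NanogWT cells and 1.78 in NanogBiD cells at day 5, against 1.15 in MEF; the higher genes have medians of 1.52 and 3.02 at day 5, against 0.98 in MEF. The genes were chosen by their day 5 difference, so that difference is a description.

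Pathways and factor classes were described with 77 gene lists, which together held 1752 tested genes and 216 (19.8%) of the 1091 called genes. Interferon-stimulated genes stood apart on the lower side, with 38 of 54 tested members lower and none higher. Among retinoid pathway genes 7 of 18 were higher and none lower, a count that fell to 2 without the first NanogWT library. Across all genes the day 5 difference rose with GC content (Spearman rho 0.37 over genes, which are not independent) and fell with length (rho -0.19), so the list medians are also given with the trend on both removed (the GC-corrected fit) where they moved by over 1.5 times; the median of all genes tested was 0.03 in that fit. The part of this trend in any list was not tested.

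**Figure D2:**
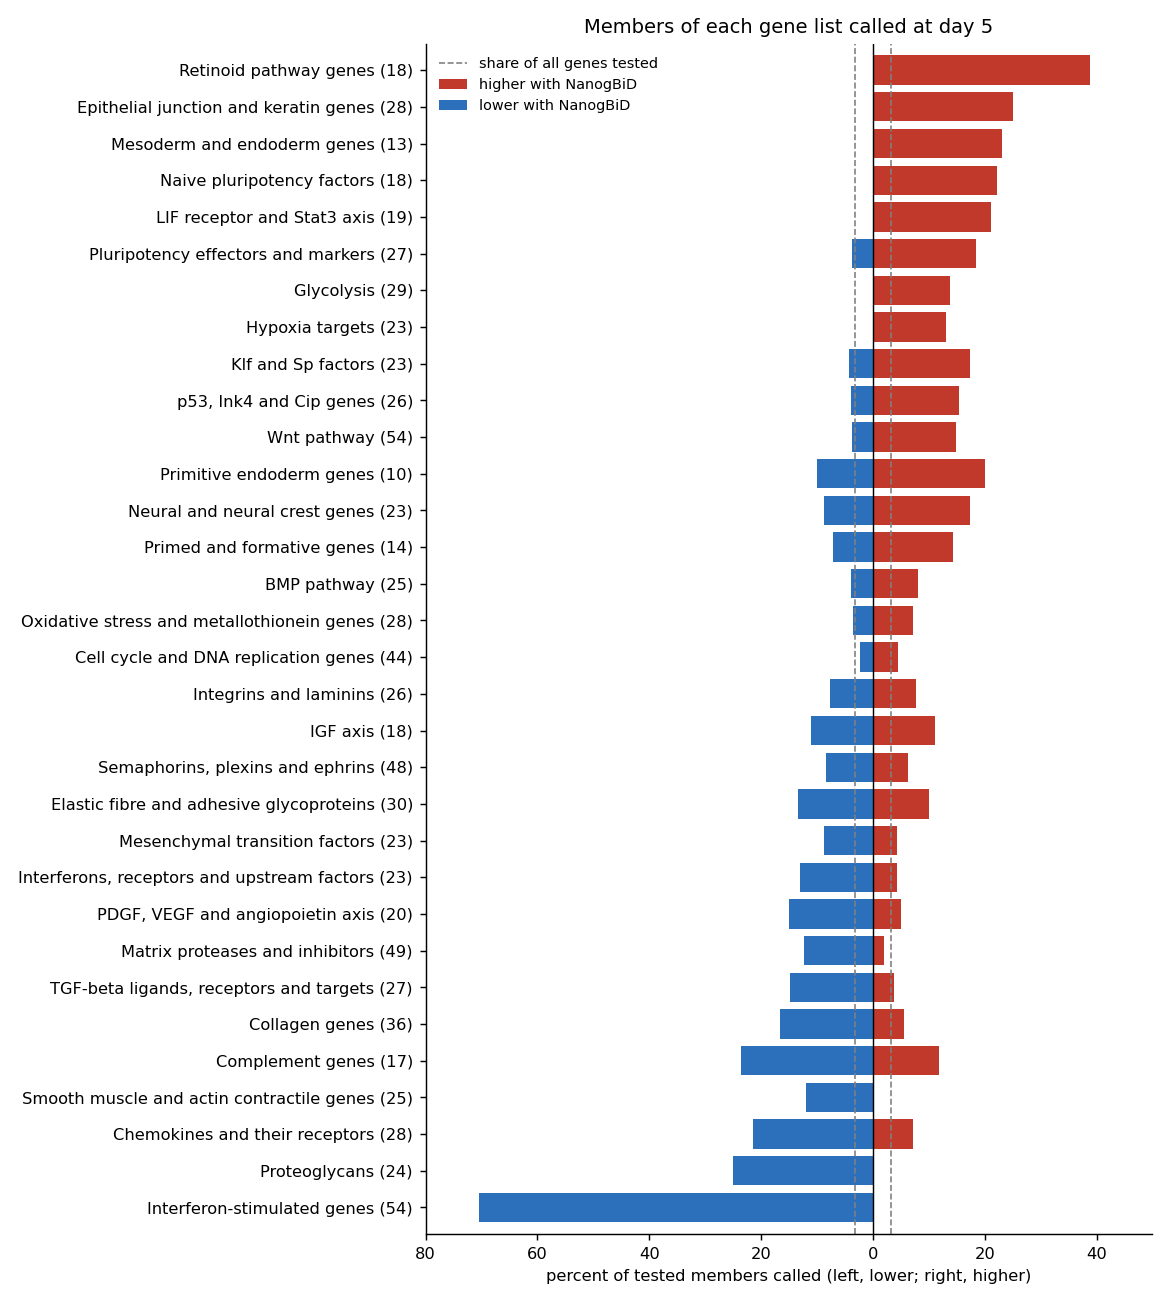
Percent of the tested members of each gene list that were called lower (left, blue) or higher (right, red) with NanogBiD at day 5, for lists with 3 or more called members. Numbers in brackets are tested members and dashed lines mark the shares of all genes tested, 3.28% lower and 3.2% higher. Interferon-stimulated genes reach 70.4% on the left and retinoid pathway genes 38.9% on the right.

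Interferon-stimulated genes encode sensors, nucleases, GTPases and ubiquitin-like modifiers that restrict viruses. Type I interferon turns them on through a complex that holds STAT2 and IRF9. Their median difference was -1.39, against 0.08 over all genes tested. In 53 of 54 the 2 libraries of a group did not overlap with those of the other, a separation also seen in 10668 of all 16842 genes tested. The 4 called members with the largest differences were Ifi44, Ifi204, Zbp1 and Ifi205. Ifi44 stood at 0.638 and 0.784 FPKM with NanogBiD and 22.5 and 24.1 with NanogWT (log2 difference -3.83, SE 0.30, adjusted p = 4.5e-08). Ifi204, a DNA-binding protein of the p200 family, stood at 5.37 and 4.85 against 68.6 and 72 (log2 difference -3.55, SE 0.25, adjusted p = 1.2e-08). Zbp1, a sensor of Z-form nucleic acid, stood at 1.29 and 2.19 against 23.3 and 26.8 (log2 difference -3.26, SE 0.32, adjusted p = 5.5e-07). In each of these the NanogBiD libraries were several-fold below both NanogWT libraries. Ifit1, which binds RNA lacking host cap methylation, stood at 12.2 and 9.07 against 81.9 and 76.8 (log2 difference -2.80, SE 0.41, adjusted p = 6.6e-05). Cytosolic RNA sensors, named after their values were seen, were lower as well: Ddx58 (RIG-I) at 16.2 and 15 against 46.4 and 43.4 and Ifih1 (MDA5) at 4.33 and 4.29 against 13.9 and 12.5, with log2 differences of -1.47 and -1.41. The other 16 members were not called. Isg15, the ubiquitin-like modifier, did not overlap between the groups but varied widely with NanogWT (58.8 and 158 FPKM, against 32.4 and 26.8 with NanogBiD) and was not called (log2 difference -1.68, SE 0.69, adjusted p = 0.11). Bst2 stood at 231 and 203 against 206 and 446 (log2 difference -0.48, SE 0.57, adjusted p = 0.62). The 2 members with a positive difference, named after their values were seen, were Oasl1 at 6.61 and 6.66 against 4.41 and 6.50 (log2 difference 0.26) and Epsti1 at 3.63 and 3.66 against 2.91 and 2.71 (log2 difference 0.29).

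**Figure D3:**
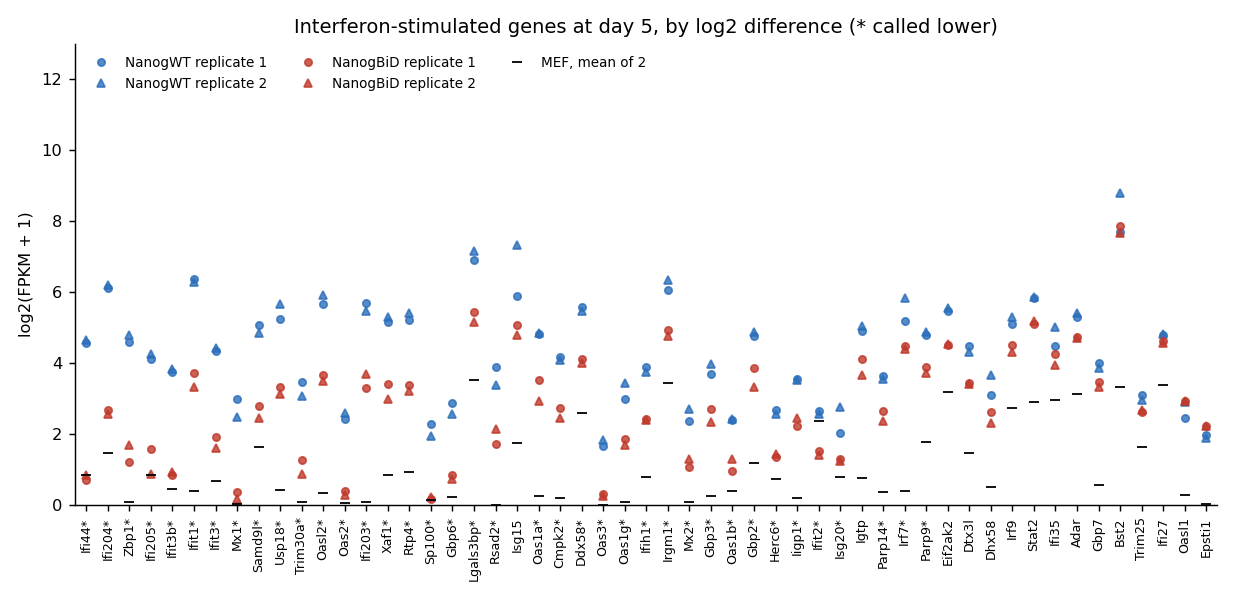
Level of 53 of the 54 tested interferon-stimulated genes, on log2(FPKM + 1), in each of the 4 day 5 libraries (red, NanogBiD; blue, NanogWT; circles, replicate 1; triangles, replicate 2) and the mean of 2 MEF libraries (dashes), ordered by the difference. The 38 genes with an asterisk were called lower; most NanogBiD points lie between the NanogWT points and the MEF dashes.

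Several of these genes sit in families of near-identical copies (Ifi203 to Ifi205, Ifit, Oas, Gbp, Mx, the immunity-related GTPases and Trim30), between which reads could be split wrongly. Of the 24 tested members in such families 21 were lower, and of the 30 outside them 17 were lower, with a median difference of -1.11. Leaving out any 1 of the 4 libraries gave 30 to 37 lower members, and the fit with the trend on GC content and length removed gave 39.

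The upstream side of the pathway was followed with a list added after the values were seen, of interferons, their receptors and the factors below them, of which 3 of 23 tested members were lower and 1 was higher (median -0.09, GC-corrected -0.15). Of 20 type I, II and III interferon genes in the table, 18 were listed at 0 in all 4 libraries, and the highest value in any of them was 1.28 FPKM. The type I receptor gene Ifnar1 stood at 23.4 and 23.4 against 21.4 and 19.6 (log2 difference 0.18, SE 0.12, adjusted p = 0.32). Stat2 and Irf9, named after their values were seen, lay under the 2-fold limit, with Stat2 at 33.3 and 35.2 against 55.6 and 57.2 (log2 difference -0.71, SE 0.25, adjusted p = 0.062) and Irf9 at 21.7 and 19 against 33.4 and 38.6 (log2 difference -0.79, SE 0.19, adjusted p = 0.0073). The members that passed were a sensor, receptor subunits and an induced factor. Tlr3, the endosomal sensor of double-stranded RNA, stood at 3.5 and 2.97 against 15.4 and 10.7 (log2 difference -1.72, SE 0.25, adjusted p = 6.1e-05). Irf7, a factor that amplifies interferon production, stood at 21.4 and 19.9 against 35.5 and 55.7 (log2 difference -1.07, SE 0.35, adjusted p = 0.039). The interferon gamma receptor subunits moved in opposite directions, Ifngr1 at 17.7 and 12.7 against 36.9 and 31.3 (log2 difference -1.13) and Ifngr2 at 58.5 and 55.7 against 22.6 and 24.2 (log2 difference 1.25). Without the second NanogBiD library, 1 of the 3 lower members of this list was called. Macrophages carry many interferon-stimulated transcripts, and of 8 macrophage and blood markers 4 were under 1 FPKM in all 4 libraries, none was called, and their sum was 5.13 to 8.04 FPKM with NanogBiD and 10.5 to 18.5 with NanogWT. Lyz2 made up most of that difference, at 2.11 and 1.16 against 12.8 and 5.90 (log2 difference -1.91, adjusted p = 0.11). Ptprc, the pan-leukocyte gene CD45, went the other way, at 1.53 and 1.34 against 0.473 and 0.241 (adjusted p = 0.00015, and too small a difference, 0.85 on the log2 scale, to be called). The part of such cells in the difference was not tested.

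The difference in this list arose after day 0. Its mean level on log2(FPKM + 1) was 1.33 and 1.46 with NanogBiD and 1.27 and 1.64 with NanogWT at day 0, and the groups overlapped. At day 3 it had risen in both, to 2.89 and 3.52 with NanogBiD and 3.90 and 3.96 with NanogWT, and 10 members were lower. At day 5 it stood at 2.75 and 2.87 against 4.28 and 4.39, and at day 7, 39 members were lower (median -1.51). The change in difference from day 0 to day 5 passed the test for 27 of the 54 members, all toward lower, against 3.94% of all genes tested.

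The element that this complex of STAT2 and IRF9 binds, the interferon-stimulated response element, was looked for as GAAA, any 2 bases and GAAA again, on both strands, in 300-base promoter windows from RefSeq (GRCm38.p6, 250 bases before to 50 after the start of transcription, the first listed start where a gene had several). Windows were found for 11953 of the 16842 tested genes, and 2.95% of these held the letters. They were present in 14 of the 26 windows of lower interferon-stimulated genes (53.8%) and in 6 of the 13 windows of those not called (46.2%). Among all lower genes the share was 8.95%, it was 5.75% without the listed interferon genes, and among higher genes it was 2.23%. The 5 lower list members with the largest differences that held a match before the start of transcription are printed 5′ to 3′ on the gene's strand, up to 80 bases each, with every match, or its reverse complement, in capitals; a match is a description and not a bound site.
Ifi205 (chr1:174031845-174031924, - strand): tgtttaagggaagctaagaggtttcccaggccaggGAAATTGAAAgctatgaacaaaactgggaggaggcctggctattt
Ifit3b (chr19:34607768-34607847, + strand): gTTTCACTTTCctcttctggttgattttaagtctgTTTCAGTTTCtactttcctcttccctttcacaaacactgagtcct
Ifit1 (chr19:34640769-34640848, + strand): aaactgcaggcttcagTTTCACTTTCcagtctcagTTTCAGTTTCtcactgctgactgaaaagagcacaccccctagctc
Ifit3 (chr19:34583372-34583451, + strand): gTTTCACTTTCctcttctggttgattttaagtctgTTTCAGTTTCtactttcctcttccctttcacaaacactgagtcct
Trim30a (chr7:104465194-104465264, - strand): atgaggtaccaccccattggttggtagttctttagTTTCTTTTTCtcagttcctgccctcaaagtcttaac
The match nearest the start of transcription lay 134 bases before it in Ifi205, 154 in Ifit3b, 85 in Ifit1, 122 in Ifit3 and 36 in Trim30a, counted from the first base of the match. In Ifit3 and Ifit3b the start used lay inside the annotated gene. The annotated spans begin before the printed windows, at bases 34583119 and 34607530. The windows of Ifit3 and Ifit3b were identical over 80 bases, and reads of these neighbours could likewise be shared. Of the other letters searched, the AP-1 site TGANTCA was in 12.8% of the windows of lower genes, 5.29% of those of higher genes and 5.07% of all; the TEAD site GGAATG was in 16.4%, 12.3% and 12.3%; and the Sp and Klf site GGGCGG was in 45.8%, 63.2% and 62.2%. The octamer ATGCAAAT, the site of Oct4, was in 2.05% of the windows of lower genes (8 of 391), 3.34% of those of higher genes (12 of 359) and 1.60% of all. Shares for lower genes, higher genes and all genes, in that order, were 1.79%, 2.23% and 3.06% for the CRE site TGACGTCA, 7.16%, 8.36% and 7.35% for the Sox site ACAATG, 5.12%, 7.80% and 9.76% for the E-box CACGTG, 32.7%, 38.4% and 39.3% for the NF-Y site CCAAT and 1.28%, 0.279% and 1.09% for the SREBP site TCACNCCAC. A Klf or Sp match and another match can overlap in the same window.

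Other immune lists leaned the same way with fewer members. Of 28 chemokines and receptors 6 were lower and 2 higher, and of 17 complement genes 4 were lower and 2 higher. Cx3cl1, a membrane-bound chemokine, stood at 4.43 and 3.52 against 31.8 and 27.5 FPKM (log2 difference -2.62, SE 0.41, adjusted p = 0.00014). Ackr2, a scavenger receptor for chemokines, stood at 0.295 and 0.389 against 6.47 and 6.33 (log2 difference -2.46, SE 0.15, adjusted p = 1.4e-09). The stromal chemokine Cxcl12 stood at 2.04 and 1.87 against 10.5 and 10.1 (log2 difference -1.94, SE 0.28, adjusted p = 5.9e-05). Among those higher was Cxcl14, at 185 and 158 against 28.6 and 41 (log2 difference 2.28, SE 0.46, adjusted p = 0.0017). In the complement list the classical pathway proteases were lower, C1s1 at 1.89 and 2.35 against 11 and 10.2 and C1ra at 6.34 and 4.7 against 19.6 and 25.1, while clusterin (Clu), a secreted chaperone, and the protease Cfi were higher. Of 20 inflammatory cytokines and adhesion genes, Sele (E-selectin) stood at 2.65 and 1.91 against 50.9 and 34.3 (log2 difference -3.72, SE 0.33, adjusted p = 2.1e-07) and Ptgs2 (cyclooxygenase 2) at 1.35 and 1.22 against 13.3 and 11.4 (log2 difference -2.55, SE 0.20, adjusted p = 4.5e-08), and the others were not called; without the first NanogBiD or the first NanogWT library 4 were lower. Of 23 genes of MHC class I and antigen processing 2 were lower, H2-T23 and Erap1, and the median was -0.46 (GC-corrected -0.71). B2m, the light chain of class I molecules, stood at 1092 and 1037 against 1952 and 1798 FPKM, under the 2-fold limit (log2 difference -0.82, SE 0.20, adjusted p = 0.0075). Without the second NanogBiD or the first NanogWT library no gene of that list was called, and without either of the other libraries 1 was, Erap1, which was itself not called in the GC-corrected fit.

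Extracellular matrix genes of the fibroblast were lower in part. Of 24 proteoglycans 6 were lower and none higher (median -0.45), of 36 collagens 6 were lower and 2 higher (median -0.28), of 49 matrix proteases and inhibitors 6 were lower and 1 higher (median -0.22; none higher without the second NanogBiD library or in the GC-corrected fit), and of 30 elastic fibre and adhesive glycoproteins 4 were lower and 3 higher (median -0.12). The GC-corrected medians of these 4 lists were -0.67, -0.42, -0.36 and -0.26. Lumican (Lum), a keratan sulfate proteoglycan of collagen fibrils, stood at 22.8 and 22.2 FPKM against 101 and 92 (log2 difference -2.05, SE 0.25, adjusted p = 7.3e-06). Biglycan (Bgn) stood at 10.8 and 18.7 against 45.1 and 57, with 1352 in MEF (log2 difference -1.76, SE 0.35, adjusted p = 0.0012). Has2, which makes hyaluronan, stood at 0.583 and 1.28 against 5.72 and 4.72 (log2 difference -1.71, SE 0.20, adjusted p = 4.1e-06). In all 3 the groups did not overlap. Col28a1 had the largest difference of the collagens, at 0.891 and 1.09 against 18.3 and 14.6 (log2 difference -3.13, SE 0.16, adjusted p = 2.6e-10). It was at 0.696 FPKM in MEF, so the gene was raised in NanogWT cells. Col1a2 and Col6a3, by contrast, were below their MEF means of 1726 and 54.7 FPKM in both groups, at 45.2 and 53.2 against 135 and 149 (log2 difference -1.51, SE 0.20, adjusted p = 1.8e-05) and 10.6 and 13.9 against 41.1 and 35.3 (log2 difference -1.57, SE 0.30, adjusted p = 0.0011). Col1a1, the partner chain of Col1a2, did not pass at 115 and 130.3 against 172 and 202 (log2 difference -0.60, SE 0.26, adjusted p = 0.12), and was named after its values were seen.

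Dermatopontin (Dpt), which binds decorin and collagen, had the largest lower difference of the adhesive glycoproteins, 0.265 and 0.429 against 13.2 and 24.9 FPKM (log2 difference -3.83, SE 0.26, adjusted p = 6.9e-09). Thrombospondin 1 (Thbs1) stood at 42.3 and 48.2 against 224 and 234 (log2 difference -2.32, SE 0.29, adjusted p = 1.1e-05). Among the proteases and inhibitors, Serpine2 stood at 44.1 and 47.6 against 165 and 210.4 (log2 difference -2.0, SE 0.24, adjusted p = 5.5e-06) and gelatinase Mmp2 at 13.9 and 14.1 against 43.2 and 53.9 (log2 difference -1.71, SE 0.14, adjusted p = 6.0e-08). Matrix genes that rose were fewer: Igfbp7 at 148 and 144 against 15.7 and 25.5 (log2 difference 2.81, SE 0.37, adjusted p = 1.9e-05) and the collagen cross-linking enzyme Lox at 102 and 87.3 against 42 and 33 (log2 difference 1.32, SE 0.23, adjusted p = 0.00043). Lox was the called gene among 24 genes of collagen processing. Of the 3 higher adhesive glycoproteins 1 was called without either NanogBiD library or without the first NanogWT library. Integrins and laminins were balanced, with 2 lower (Itga1 and Itga8) and 2 higher (among them Lama1) of 26.

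TGF-beta, YAP and TEAD sustain matrix and contractile genes in fibroblasts. In the lists of TGF-beta ligands, receptors and targets and of YAP and TEAD targets a few members were lower. Ctgf (Ccn2), a target of both, stood at 5.36 and 4.75 FPKM with NanogBiD and 48.5 and 64.7 with NanogWT, with 465 in MEF (log2 difference -3.24, SE 0.31, adjusted p = 5.2e-07). Of 27 genes of the TGF-beta list 4 were lower, among them the ligand Tgfb2 at 2.79 and 4.11 against 9.47 and 9.64 and the co-receptor endoglin (Eng) at 4.06 and 4.6 against 10.1 and 12.7, and Tgfbi was higher at 252 and 269 against 84.7 and 98.4 (log2 difference 1.5, SE 0.29, adjusted p = 0.00093). Without the second NanogBiD or the first NanogWT library a further member was higher. The ligand Tgfb1 did not pass (67.3 and 63.6 against 40.8 and 46.9, adjusted p = 0.3). Of 14 YAP and TEAD targets Ctgf and Tgfb2, both also counted in the TGF-beta list, were lower and none was higher. Of 25 smooth muscle and actin contractile genes, Des, Mylk and Myl9 were lower, and 1 of them was called without the first NanogBiD library. Acta2, the smooth muscle actin of activated fibroblasts, stood at 29.5 and 22 against 15.1 and 18.5, far below its 961 in MEF in all 4 libraries (log2 difference 0.58, SE 0.32, adjusted p = 0.24).

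Pluripotency genes were higher in part, at levels far below mES. Of 18 factors of naive pluripotency 4 were higher and none lower (median 0.46), of 27 effectors and markers 5 were higher and 1 lower (median 0.15), and of 14 primed and formative genes 2 were higher and 1 lower (median 0.25). The GC-corrected medians were 0.29 for the naive factors and 0.0034 for the primed and formative genes. Nr5a2, a nuclear receptor that can act on the Oct4 gene, stood at 1.36 and 2.31 FPKM against 0.128 and 0.0835 with 20.6 in mES (log2 difference 1.34, SE 0.25, adjusted p = 0.00076). Klf2 stood at 3.07 and 2.13 against 0.0651 and 1.05 (log2 difference 1.27, SE 0.42, adjusted p = 0.043), and Klf4 and Sall4 were the other 2. Esrrb stood at 1.07 and 1.46 against 0.253 and 0.221 with 163 in mES, and its difference of 0.87 was under the limit. Without the first NanogWT library 2 of the 18 were called, and Klf2 was not called without either NanogBiD library or in the GC-corrected fit. Among the effectors the RNA-binding protein Lin28a stood at 2.78 and 2.86 FPKM and was listed at 0 in both NanogWT libraries (adjusted p = 8.4e-05), and the adhesion molecule Epcam stood at 5.02 and 4.17 against 0.631 and 0.687 (log2 difference 1.75, SE 0.34, adjusted p = 0.0011). The alkaline phosphatase gene Alpl went the other way, at 1.71 and 1.74 against 5.18 and 6.06 (log2 difference -1.28, SE 0.26, adjusted p = 0.0015). Of the primed and formative genes Lef1 stood at 2.16 and 3.22 against 0.658 and 0.739 (log2 difference 1.10, SE 0.28, adjusted p = 0.009), while the POU factor Pou3f1 was lower at 7.08 and 8.55 against 26.9 and 33.2 (log2 difference -1.82, SE 0.43, adjusted p = 0.0057). Without the second NanogBiD or first NanogWT library 1 of the 2 higher members was called, and without the first NanogBiD library Pou3f1 was not.

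LIF signals through gp130 and STAT3 to hold the naive state. Of 19 genes of this axis 4 were higher and none lower. Socs2, a feedback inhibitor of cytokine receptors, stood at 8.77 and 9.44 FPKM against 1.52 and 1.42 (log2 difference 2.03, SE 0.24, adjusted p = 6.1e-06). Gbx2, a STAT3 target, stood at 3.06 and 4.35 against 0.167 and 0.133 (log2 difference 2.02, SE 0.46, adjusted p = 0.0048). The kinases Pim1 and Pim3 stood at 15.2 and 13.6 against 4.1 and 5.15 and 21.2 and 20.9 against 8.65 and 9.72 (adjusted p = 0.00054 and adjusted p = 0.0036). The called members were thus targets and feedback genes, and Pim3 was not called in the GC-corrected fit. The ligand Lif (1.57 and 1.6 against 1.36 and 1.79), the receptor genes Lifr (19.4 and 20.8 against 18.8 and 15.5) and Il6st (33.5 and 35.5 against 35.4 and 36.7) and the feedback gene Socs3 (50.7 and 60.7 against 21.4 and 30.1, log2 difference 1.10, SE 0.40, adjusted p = 0.071) did not pass, the last 3 of which were named after their values were seen.

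The factor classes together held 359 tested transcription factor genes, of which 24 were higher and 7 lower (8.64% called, against 6.48% of all genes tested, and median 0.04). Sp5, a zinc finger factor induced by Wnt, had the largest difference, at 25 and 22.8 FPKM against 1.41 and 0.608 (log2 difference 3.66, SE 0.55, adjusted p = 9.0e-05). In the same class Klf10 was higher at 8.34 and 8.81 against 2.84 and 3.59 and Klf14 lower at 0.208 and 0.433 against 2.69 and 2.88, giving 4 higher and 1 lower of 23 Klf and Sp factors; without the first NanogBiD or the first NanogWT library 2 were higher. Of 18 AP-1 factors Jun (99.2 and 107 against 37.2 and 38.8, log2 difference 1.42, SE 0.32, adjusted p = 0.0037) and Atf3 (15.5 and 11 against 2.75 and 2.15, log2 difference 2.04, SE 0.33, adjusted p = 0.0002) were higher and none was lower. In the GC-corrected fit 1 AP-1 factor was lower. Jun was above its MEF mean of 46.3 FPKM with NanogBiD and below it with NanogWT.

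Several developmental factors stood at a few FPKM with NanogBiD and lower with NanogWT. Sox17, an endoderm factor, stood at 2.17 and 2.07 against 0.0657 and 0.184 (log2 difference 1.47, SE 0.14, adjusted p = 3.1e-07). The homeobox factor Dlx1 stood at 2.26 and 2.45 against 0.203 and 0.139 (log2 difference 1.52, SE 0.14, adjusted p = 2.6e-07). Tbx2 stood at 5.96 and 6.62 against 1.26 and 2.01 (log2 difference 1.48, SE 0.26, adjusted p = 0.00042). Dlx3, Hoxb1 and Meox1 were listed at 0 in both NanogWT libraries and stood at 1.31 and 1.79, 1.39 and 1.95 and 1.51 and 1.11 FPKM with NanogBiD (adjusted p = 0.00034, adjusted p = 0.00028 and adjusted p = 1.2e-05). Of 39 Hox genes 2 were higher, Hoxb1 among them, and none was lower (5.13% called, against 6.48% of all genes tested). The list median was -0.12 (GC-corrected -0.34), and 16 of the 39 had a positive difference. The calls were not all kept without the second NanogBiD or first NanogWT library. Elf3 and Erf of the Ets class (Elf3 at 1.75 and 2.54 against 0.198 and 0.474, Erf at 24.8 and 28.8 against 7.51 and 11.8) were higher, Elf3 not in the GC-corrected fit and neither of them without the second NanogBiD or the first NanogWT library. Mycn was at 2.81 and 2.79 against 0.296 and 0.764 (log2 difference 1.33, SE 0.44, adjusted p = 0.043) and was not called once any 1 library was left out or in the GC-corrected fit. Stat4 was higher (2.57 and 1.86 against 0.479 and 0.53), as was Bcl3, a nuclear partner of NF-kB (42.1 and 37.9 against 14.4 and 16.1), which was not called in the GC-corrected fit. Stat4 was not called without the first NanogBiD library, and Irf7 was called only with all 4 libraries or without the first NanogWT library.

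On the lower side stood the thyroid hormone receptor Thrb at 0.872 and 1.12 against 7.66 and 7.17 (log2 difference -2.08, SE 0.18, adjusted p = 1.1e-07), the forkhead factor Foxp2 at 0.866 and 0.769 against 5.84 and 4.48 (log2 difference -1.75, SE 0.26, adjusted p = 7.7e-05) and the mesenchymal factors Osr1 at 11.9 and 12.8 against 33.2 and 35.7 (log2 difference -1.41, SE 0.16, adjusted p = 3.1e-06) and Prrx1 at 5.21 and 5.39 against 12.6 and 10.9 (log2 difference -1.02, SE 0.20, adjusted p = 0.001). Prrx1 and Osr1 were lower and Meox1 was higher of 23 mesenchymal transition factors, a class with a median of -0.46, in which Snai1 did not pass (2.86 and 4.26 against 1.6 and 3.98). Without the first NanogBiD or the first NanogWT library 1 of the 2 lower was called, and in the GC-corrected fit Osr1 alone was called of the 3. Without the second NanogWT library or in the GC-corrected fit a further nuclear receptor was lower, and in the latter 2 of 41 homeobox factors outside the Hox genes were lower. Classes of a few members would hold few calls or none at the 6.48% of all genes tested. No member passed among 3 Gata, 15 ATF and CREB, 5 Cebp, 12 Runx and Tead and 13 E2F and pocket protein genes. Gata6, Atf4, Cebpd, Tead2 and Tfdp1, the most abundant of each, had log2 differences of -0.29, 0.14, -0.31, 0.63 and 0.20.

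**Figure D4:**
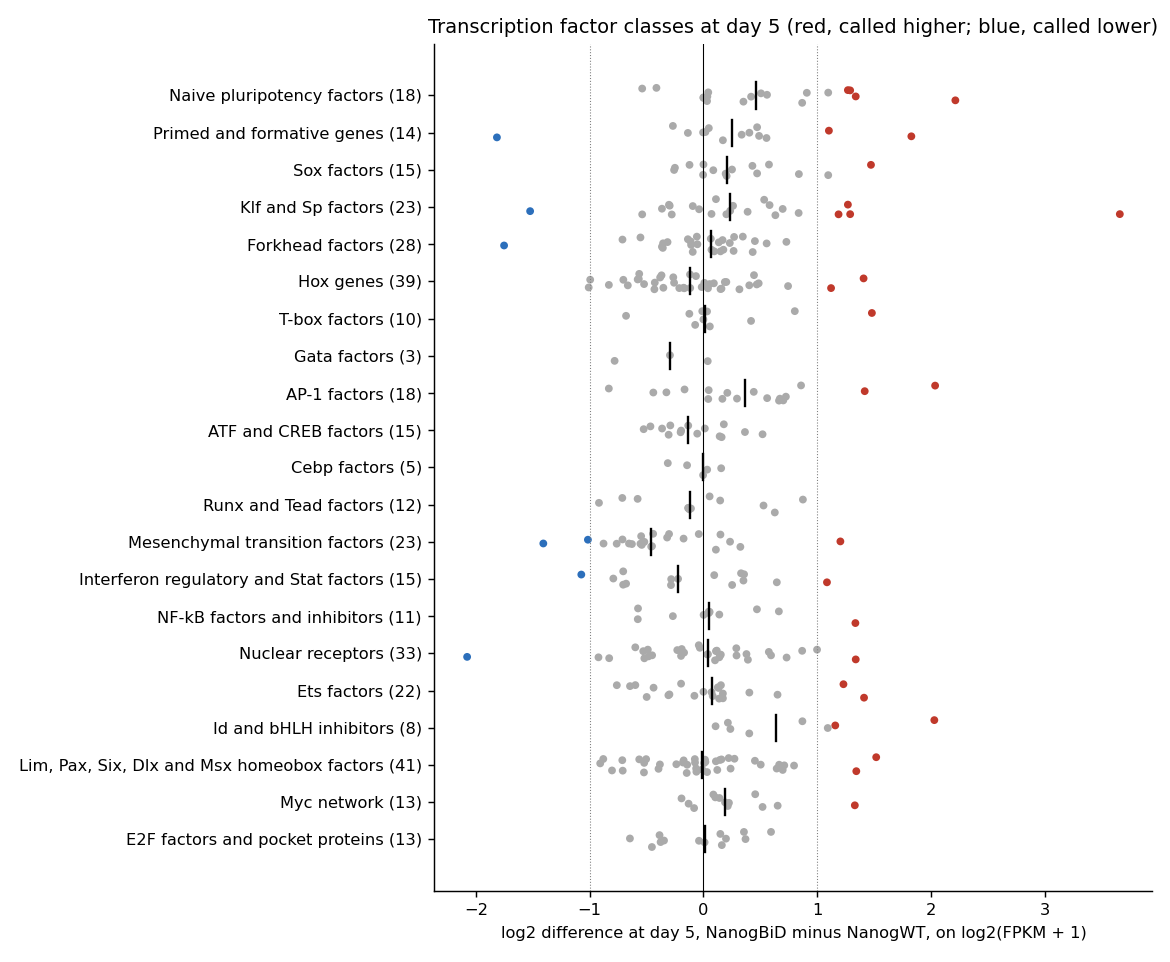
Log2 difference at day 5 of each tested gene of 21 transcription factor classes (a point per gene, members in brackets; vertical position within a class is random), with the class median as a black bar and dotted lines at the 2-fold limit. Red points were called higher and blue points lower; Sp5 lies farthest right at 3.66 and Thrb farthest left at -2.08.

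Retinoic acid is made from retinol by dehydrogenases and acts on nuclear receptors. The list of its carriers, enzymes and receptors had 7 of 18 tested members higher and none lower (median 0.48, GC-corrected 0.30). Aldh1a2, the main retinaldehyde dehydrogenase of the embryo, stood at 44.9 and 36.9 FPKM against 4.18 and 4.85 (log2 difference 2.92, SE 0.26, adjusted p = 2.2e-07). Crabp2, which carries retinoic acid to the nucleus, stood at 36.9 and 41.1 against 2.36 and 5.9 (log2 difference 3.05, SE 0.71, adjusted p = 0.0049). Stra6, the membrane receptor for retinol uptake, stood at 5.44 and 6.51 against 0.562 and 0.607 (log2 difference 2.13, SE 0.25, adjusted p = 6.1e-06). In these genes the groups did not overlap. Others that were higher, named after their values were seen, were Aldh1a3 at 29.3 and 25.4 against 10.9 and 12.9, the reductase Dhrs3 at 6.32 and 5.86 against 2.19 and 2.8 and the retinoic acid hydroxylase Cyp26a1 at 1.53 and 1.67 against 0 and 0.381. The receptor Rara did not pass (4.77 and 4.95 against 2.64 and 4.58, adjusted p = 0.33). The change in difference from day 0 to day 5 passed for 7 members, all toward higher. With the trend on GC content and length removed 5 members were higher. The count depended on single libraries: it was 2 without the first NanogWT library (which also ended the call of Crabp2), 4 without the first NanogBiD library and 6 without either of the others.

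Wnt ligands act through Frizzled receptors on beta-catenin and its partners of the Tcf family. Of 54 genes of the Wnt list 8 were higher and 2 lower (median 0.16). The GC-corrected median of the list was -0.02, so its sign turned, while 7 were higher and 2 lower. Among the ligands, Wnt8a stood at 2.4 and 3.08 FPKM and was listed at 0 in both NanogWT libraries (adjusted p = 9.6e-05), and Wnt6 stood at 1.74 and 2.81 against 0.0512 and 0 (log2 difference 1.66, SE 0.25, adjusted p = 7.5e-05). Wnt3 stood at 1.18 and 2.28 against 0.104 and 0.125 (log2 difference 1.26, SE 0.20, adjusted p = 0.00014). The receptor Fzd10 stood at 2.53 and 2.52 against 0.158 and 0.0948 (log2 difference 1.65, SE 0.51, adjusted p = 0.031), a call that was lost when any 1 library was left out or in the GC-corrected fit. Of the nuclear partners Tcf7 stood at 11.8 and 9.42 against 3.54 and 3.47 (log2 difference 1.36, SE 0.25, adjusted p = 0.00063), and the feedback inhibitor Nkd1 at 3.72 and 4.77 against 0.702 and 1.3 (log2 difference 1.4, SE 0.35, adjusted p = 0.0085). Axin2, another feedback gene, did not pass at 8.7 and 10.5 against 5.57 and 6.3 (log2 difference 0.61, SE 0.26, adjusted p = 0.12). The secreted potentiator Rspo1 was the largest lower difference, at 0.43 and 0.813 against 8.18 and 8.22 (log2 difference -2.51, SE 0.24, adjusted p = 4.5e-07), and the receptors Fzd6 and Fzd8 went opposite ways, at 40.7 and 40.5 against 19.3 and 19.3 and 18.7 and 20.2 against 40.6 and 45.7. Tcf7, Nkd1, Axin2, Fzd6 and Fzd8 were named after their values were seen. Without the second NanogBiD or the first NanogWT library 5 were higher. Sp5, the Wnt-induced factor described above, was no member of this list.

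**Figure D5:**
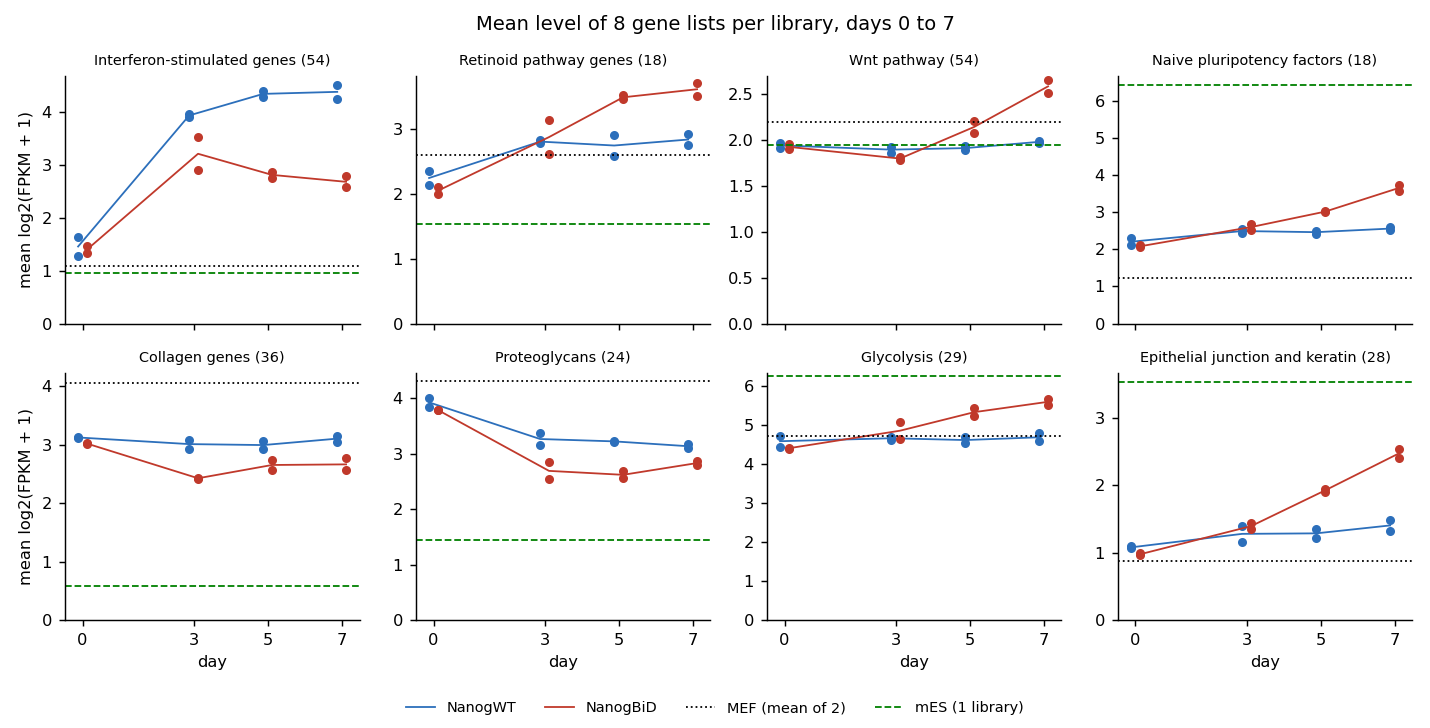
Mean log2(FPKM + 1) over the tested members of 8 gene lists in each library at days 0, 3, 5 and 7 (points; lines join group means; red, NanogBiD; blue, NanogWT), with the MEF mean (dotted) and the mES library (dashed). Interferon-stimulated genes rise in both groups by day 3 and separate to 2.75 and 2.87 against 4.28 and 4.39 at day 5; the retinoid, Wnt, naive factor, glycolysis and epithelial lists are higher with NanogBiD at day 5, and collagens and proteoglycans lower.

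BMP signalling turns on Id genes, whose products block bHLH factors. Id3 stood at 46.4 and 36.1 FPKM against 7.56 and 11.3 (log2 difference 2.03, SE 0.39, adjusted p = 0.0011) and Id1 at 20.3 and 18.6 against 7.48 and 8.89 (log2 difference 1.16, SE 0.33, adjusted p = 0.02). The secreted BMP antagonist Grem1 was lower, at 35.8 and 61.1 against 195 and 209 (log2 difference -2.08, SE 0.38, adjusted p = 0.00059), and these 3 were the called members of 25 in the BMP list. Id1 lost its call without either NanogBiD library, without the first NanogWT library and in the GC-corrected fit. Other signalling lists held calls in both directions. In the IGF axis (18 tested, 2 higher and 2 lower), the binding protein Igfbp3 stood at 22.6 and 24.9 against 86.2 and 91.5 (log2 difference -1.86, SE 0.17, adjusted p = 2.2e-07) and Igfbp5 at 55.8 and 90.2 against 191 and 185 (called lower except without the first NanogBiD library), while the protease Pappa2 was higher at 2.07 and 2.05 against 0.48 and 0.337. In the PDGF, VEGF and angiopoietin list (20 tested, 1 higher and 3 lower), Vegfd stood at 1.16 and 1.65 against 12.3 and 10.3 (log2 difference -2.36, SE 0.19, adjusted p = 6.1e-08), Angpt1 at 7.03 and 5.47 against 22.5 and 17.9, Pdgfd at 12.8 and 13.3 against 32.9 and 28.9 and Pdgfa, which was higher, at 10.9 and 10.8 against 4.04 and 4.04. Without the first NanogBiD or the second NanogWT library 3 of that list were higher.

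Of 48 semaphorins, plexins, ephrins and their receptors 3 were higher, with Sema3b at 15.7 and 16 against 2.37 and 3.27 and Sema6c at 15.7 and 13.6 against 2.95 and 3.95, and 4 were lower, with Sema6d at 2.51 and 4.01 against 21 and 19.4 and Sema5a at 3.74 and 4.34 against 18.6 and 13.4. These guidance cues thus divided between the groups. Without the first NanogBiD library 2 were lower. In the Notch list (19 tested) the ligand Dll3 was higher at 2.63 and 5.76 against 0.246 and 0.589 and the receptor Notch3 lower at 4.69 and 5.47 against 14 and 15.5; Dll3 was not called without the second NanogBiD library, and without the second NanogWT library 2 members were higher. No gene passed among 21 FGF ligands and receptors, 23 ERK feedback and immediate early genes or 11 Hedgehog genes, against 6.48% of all genes tested. A Hedgehog gene was lower in the GC-corrected fit or without the second NanogWT library.

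Epithelial junction and keratin genes are raised when fibroblasts lose mesenchymal character. Of 28 tested members 7 were higher and none lower (median 0.37, GC-corrected 0.19), and leaving out 1 library gave 5 to 8. Cldn3 and Cldn4, claudins of tight junctions, stood at 11.8 and 10.5 FPKM against 0.468 and 1.74 (log2 difference 2.60, SE 0.33, adjusted p = 1.4e-05) and 6.94 and 4.91 against 0.457 and 0.86 (log2 difference 2.06, SE 0.47, adjusted p = 0.0044). Desmoplakin (Dsp) stood at 14.2 and 17.6 against 2.44 and 3.28 (log2 difference 2.13, SE 0.28, adjusted p = 1.9e-05). Cdh1, the E-cadherin gene, was under 0.41 FPKM in all 4 libraries, with 185 in mES, and did not pass (adjusted p = 0.56). Of the 6 markers examined for epithelial cells and keratinocytes, 3 were under 1 FPKM in all 4 libraries and Epcam alone was called, and the keratinocyte keratins Krt5 and Krt14 were at or under 0.137 FPKM.

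In the lists of chromatin complexes 0 to 3.57% of genes were called, against 6.48% of all genes tested. Lists of this size would hold few calls at that share. Of 30 BAF subunits Ss18, whose domain the fusion carries, was the called gene. The ATPase gene Smarca4, whose product the fused domain contacts, stood at 38.2 and 43 FPKM against 27.2 and 32.1 (log2 difference 0.44, SE 0.18, adjusted p = 0.11). Epop, a subunit that limits Polycomb at active genes, was the called gene of 28 Polycomb genes at 17.7 and 17.5 against 2.64 and 2.7 (log2 difference 2.34, SE 0.39, adjusted p = 0.00023). No gene passed among 13 NuRD subunits, 12 DNA methylation and Tet enzymes or 19 H3K9 and H3K36 methylation enzymes, whose medians were 0.27, 0.15 and -0.01 (GC-corrected 0.14, 0.14 and 0.08).

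Of 29 tested glycolysis genes 4 were higher and none lower, 26 had a positive difference and the median was 0.59, against 0.08 over all genes tested. Slc2a3 (GLUT3), a glucose transporter of the early embryo, stood at 68.5 and 66.9 FPKM against 5.23 and 4.45 with 1071 in mES (log2 difference 3.56, SE 0.29, adjusted p = 5.4e-08). The lactate exporter Slc16a3 (MCT4) stood at 9.59 and 24.6 against 0.68 and 1.37 (log2 difference 3.05, SE 0.52, adjusted p = 0.00033). Pfkl and Tpi1 stood at 12.4 and 22.1 against 4.23 and 5.33 (log2 difference 1.62, SE 0.33, adjusted p = 0.0016) and 294 and 294 against 117 and 146 (log2 difference 1.16, SE 0.26, adjusted p = 0.0038). The change in difference from day 0 to day 5 passed for 11 of the 29, all toward higher, against 3.72% of all genes tested. In the GC-corrected fit the median of the list was 0.43 and 4 members were higher, Tpi1 not among them.

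Among 83 nuclear genes of the respiratory chain 78 had a positive difference, with a median of 0.50 (0.41 with the GC and length trend removed), but Cox7a1 was the called gene, and with 1 library left out 0 to 3 were called. Its call was lost without any 1 of the 4 libraries and with the trend removed. The second NanogWT library lay nearer the NanogBiD libraries here, the summed level of the list being 5982 and 6721 FPKM with NanogBiD and 3887 and 5156 with NanogWT. No member passed among 83 cytosolic ribosomal proteins (median 0.15), 38 proteasome subunits (0.23; 2 were higher without the second NanogWT library and 1 without the second NanogBiD library), 17 cytosolic tRNA synthetases (0.31), 22 unfolded protein response genes (0.04) or 18 heat shock proteins (0.22), and the GC-corrected medians of the ribosomal proteins, the synthetases and the unfolded protein response genes were 0.02, 0.19 and -0.12. Of 23 hypoxia targets Ddit4 (20.7 and 34 against 6.31 and 8.24), Egln3 (3.35 and 10.8 against 1.88 and 1.72) and Epas1 (34.5 and 43.1 against 18.4 and 17.6) were higher, Epas1 not in the GC-corrected fit, and 1 was without the second NanogBiD or the first NanogWT library.

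Of the cell cycle and replication genes 6.82% were called, near the 6.48% of all genes tested, and of the p53, Ink4 and Cip genes 19.2%. Of 44 cell cycle and replication genes Aurka and Cdc20 were higher and Ccnd1 (cyclin D1) was lower, at 34 and 39.3 FPKM against 82.6 and 105 (log2 difference -1.33, SE 0.24, adjusted p = 0.00052). Aurka and Cdc20 were not called with the GC and length trend removed, with quantile normalization, or without the first NanogWT library, and Cdc20 also not without either NanogBiD library. Cdkn2a, the Ink4a/Arf locus that restrains reprogramming, stood at 75.8 and 69.3 against 21.6 and 34.3 (log2 difference 1.38, SE 0.26, adjusted p = 0.00084). It was 1 of 4 higher of 26 p53, Ink4 and Cip genes, with Bbc3, Gadd45g and Pmaip1, and Perp, named after its values were seen, was lower. In that list 2 were higher with the GC and length trend removed or without the first library of either group and 1 without the second NanogBiD library, and of the fits without 1 library only that without the first NanogWT library kept a lower call. Trp53 itself did not pass (38.7 and 40.1 against 27.7 and 35.9).

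In further metabolic, stress and imprinted gene lists 3.33% to 10.7% of tested members were called, against 6.48% of all genes tested. Gsta4 and Txnip were higher and Nqo1 was lower (9.13 and 8.4 against 27.4 and 31.1, log2 difference -1.63, SE 0.21, adjusted p = 1.3e-05) of 28 oxidative stress and metallothionein genes. Of 25 cholesterol synthesis genes 1 was higher and Hsd17b7 was lower, the latter except without the first NanogWT library or with the trend removed. Cth, of cysteine synthesis, stood at 3.79 and 3.12 against 13.4 and 17.6 (log2 difference -1.88, SE 0.28, adjusted p = 8.0e-05). It and Aldh1l2 were the lower members of 27 amino acid stress and one-carbon genes. Aldh1l2 lost its call without the first NanogWT library or either NanogBiD library. Tfeb was the called gene of 30 lysosome and autophagy genes, and was not called without the first library of either group or in the GC-corrected fit. Of 27 imprinted genes Mest stood at 70.5 and 57.3 against 257 and 243 (log2 difference -1.96, SE 0.21, adjusted p = 1.4e-06) and Dlk1 at 0.54 and 0.922 against 2.87 and 2.67 (log2 difference -1.13, SE 0.30, adjusted p = 0.013); Dlk1 was not called without the first library of either group, and H19 did not pass (477 and 528 against 275 and 405, adjusted p = 0.18). None of 52 clustered protocadherins was called, against 6.48% of all genes tested.

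Lineage genes were followed to see which cell identities the groups carried. Of 23 neural and neural crest genes 4 were higher (2 with the GC and length trend removed) and 2 lower. Tubb3 (neuronal beta-tubulin) stood at 252 and 252 FPKM against 17.4 and 24.2 (log2 difference 3.56, SE 0.42, adjusted p = 5.1e-06) and Stmn2 at 203 and 169 against 17.7 and 20.1 (log2 difference 3.23, SE 0.18, adjusted p = 6.7e-10), while the neurofilament genes Nefm and Nefl stood at 16.5 and 23.5 against 144 and 205 and 22.4 and 20.5 against 98.5 and 114 (adjusted p = 1.5e-05 and adjusted p = 0.0001). Neuronal cytoskeletal genes thus went both ways. The neural markers Sox10 and Elavl3 were under 0.21 FPKM in all 4 libraries. Map2, also a neural marker, stood at 11.2 and 12 against 22.6 and 18.5, under the 2-fold limit (log2 difference -0.77, adjusted p = 0.02). A gene overlapping Nefm, A230070E04Rik, can share its reads. Of 13 mesoderm and endoderm genes 3 were higher and none lower; besides Sox17 and Wnt3 this was Evx1, at 1.35 and 1.09 FPKM and listed at 0 in both NanogWT libraries (adjusted p = 1.0e-05), which was not called in the GC-corrected fit. Of 10 primitive endoderm genes Sox17 and Lama1 were higher and Dab2 lower, and without the first NanogBiD or the second NanogWT library 2 were lower. Of 14 trophoblast and 10 germline and two-cell-stage genes none was called, against 6.48% of all genes tested. Of 5 skeletal and cardiac muscle genes Casq2 was lower, and the 5 skeletal muscle markers were under 1 FPKM in all 4 libraries. Cd36 was higher and Alpl lower of 12 cartilage, bone and fat genes, Cd36 except without the first NanogBiD or the second NanogWT library. The endothelial markers summed to 3.18 and 3.73 FPKM with NanogBiD and 6.03 and 6.07 with NanogWT, with 4 of 6 under 1 FPKM in all 4 libraries and none called.

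The most extreme differences also included secreted and neuroendocrine products on both sides. The water channel Aqp8 stood at 37.7 and 32 against 1.27 and 1.81 FPKM (log2 difference 3.82, SE 0.23, adjusted p = 1.3e-09). The islet hormone Iapp stood at 131 and 129 against 6.88 and 9.36, with 0 listed in MEF and mES (log2 difference 3.86, SE 0.32, adjusted p = 6.9e-08). Pcsk1n, an inhibitor of a prohormone convertase, stood at 31.2 and 27.4 against 2.45 and 2.32 (log2 difference 3.16, SE 0.30, adjusted p = 5.0e-07). Neither MEF nor, for Iapp and Aqp8, mES expressed these at a comparable level. On the lower side the neuropeptide gene neurotensin (Nts) stood at 0.199 and 0.703 against 21.9 and 44.9 (log2 difference -4.50, SE 0.31, adjusted p = 8.4e-09) and the phosphodiesterase Pde1a at 4.23 and 4.9 against 71.3 and 60.7 (log2 difference -3.59, SE 0.18, adjusted p = 2.1e-10). The cardiac calcium store protein Casq2 stood at 0.218 and 0.0685 against 9.42 and 10.8 (log2 difference -3.28, SE 0.19, adjusted p = 1.2e-09) and Thsd7b at 0.97 and 1.15 against 18.8 and 17.9 (log2 difference -3.23, SE 0.16, adjusted p = 2.1e-10). All of these were within 5 FPKM of 0 in MEF and stood far above that in at least 1 of the 2 groups. The highest difference, that of U90926, and that of Gm42113, listed at 0 with NanogWT and at 13 and 9.73 with NanogBiD, come from overlapping genes, whose reads cannot be told apart.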

How the data were processed

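The authors trimmed reads with Trim Galore (0.6.4), mapped them to mm10 with HISAT2 (2.2.1) and quantified genes with StringTie (2.2.1) as FPKM, the unit of the deposited table of 37108 symbols; counts were not used. Depth behind each value is unknown beyond relative depth. Here log2(FPKM + 1) was fitted over all 31 time-course libraries in 16 groups with limma 3.58.1 (R 4.3.3), with the variance shared by all groups and moderated along its trend on level; genes at 1 FPKM or more in at least 2 libraries were tested (16842). A fold change on this scale understates that of low genes. Calls needed an adjusted p under 0.05 (Benjamini-Hochberg) and 2-fold. The comparison, its members and all lists were chosen with earlier results of these data known. Up to 4 called members per list, its first or most abundant member, called factors and the 15 most extreme genes each way were named; others are marked. On simulated data, 90.5% of 200 genes changed by 1.5 on the log2 scale (mean log2 level above 2.5) were recovered among 16842, with 2 others called. Among tested genes 246 are listed 2 times under an older and a newer symbol (values within 2% in at least 95% of libraries; 17 called), such as Ctgf and Ccn2. A list of mitochondrial genome genes matched no symbol. A transcript table of established iPSC was not used. Coordinates and promoters are RefSeq GRCm38.p6. Alternatives were other pseudocounts, filters, scalings, fits and libraries left out. A few members of the lists are counted but not reported by name here.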

Additional observations from a re-analysis of the deposited data

Results flagged for a closer look

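The difference between NanogBiD and NanogWT changed from day 0 to day 5 for 1290 genes, of which 627 changed toward higher and 663 toward lower with NanogBiD, by limma's interaction term with the same thresholds (7.66% of genes tested). Of the 1091 genes called at day 5, 763 (69.9%) were among them. Without the first NanogWT library of day 5 the count was 811.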

How the results depend on the processing

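The count of genes called at day 5 (1091) was 1689 (900 higher) with a pseudocount of 0.1 FPKM and 2755 (1524 higher, 1231 lower) without a fold limit. Leaving out 1 library gave 911 to 1200 called, 404 to 646 higher and 483 to 554 lower, and 811 to 1379 genes with a change from day 0 to day 5; the lowest of that last range was without the first NanogWT library, and the cause was not tested. Replicate numbers did not pair the libraries (correlation of deviations -0.043), and a replicate block gave 1116 calls, with all 1091 shared. Fitting the 2 day 5 groups alone gave 825. Removing the trend on GC content and length gave 911 calls, 375 of them higher (41.2%), and quantile normalization 1098, 458 of them higher (41.7%), against 49.4% as reported. No gene that was both called at day 5 and named by the rule reversed its sign under any alternative. Reversal was not followed for genes that were not called or were named after their values were seen. Counting genes with 2 symbols once, an alternative chosen after seeing the data, gave 1075. FPKM alone do not hold the reads behind a value, so precision for low genes is limited by depth that is not known.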
